A study of Bos indicus with 8 samples.

Results

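The SLC25 mitochondrial solute carriers of bovine blastocysts were taken as all array probes whose symbol in the platform annotation starts with SLC25A, without SLC25A20. They comprised 64 of 43794 gene probes and 36 of 15229 genes with a symbol. Of these, 56 probes for 35 genes were bright enough to be tested. Carriers of this family are encoded in the nucleus, and most sit in the inner mitochondrial membrane, where they exchange nucleotides, phosphate, organic acids, amino acids and cofactors between the cytosol and the matrix. The ADP/ATP and phosphate carriers feed ATP synthase and export the ATP that it makes. A blastocyst uses ATP for, among others, the sodium pump that draws fluid into its cavity.

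Bos indicus embryos were made in vitro, graded as blastocysts at 144 to 156 h, and only the best grade entered the vitrified and control groups. The vitrified embryos were cooled on the Cryotop, a thin strip that holds a very small volume, in 15% ethylene glycol, 15% dimethylsulfoxide and 0.5 M sucrose, and kept in liquid nitrogen for at least 30 min. The control embryos stayed in holding medium on the bench meanwhile, and both groups were then cultured for another 4 h. Embryos that looked normal after this culture were pooled by 10, so others are not represented. RNA was amplified, and a vitrified and a control pool were hybridised together on each of 8 two-colour arrays, 4 to a slide. Cy5 labelled the vitrified RNA on areas 1 and 3 of a slide, and Cy3 on areas 2 and 4. Neighbouring areas were read as dye swaps of the same pools, which gives 4 pairs. Values are log2 ratios of vitrified over control, given in the order of the first slide areas 1 and 2, the first slide areas 3 and 4, the second slide areas 1 and 2, and the second slide areas 3 and 4. Their SD is over these 4 pairs. Per the labels the replicates are biological, and separate cultures are not mentioned, so p-values cover no more than the spread between these pools.

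Of the 64 probes, 53 to 58 were above background in each channel of 7 arrays. On the second slide area 1, where a few bright negative controls raised the limit, 25 were for vitrified RNA and 21 for control RNA, and 55 and 57 with a limit from the median of the negative controls. SLC25A46, an outer membrane protein of mitochondrial division, had 1 probe, which was above background on 0 of 8 arrays and was not tested. The other untested probes were 1 each of SLC25A12, SLC25A16, SLC25A17, SLC25A21, SLC25A24, SLC25A31 and SLC25A40, genes that another probe measured. No spot of the family was saturated. A gene with several tested probes is given by its brightest one, and levels of different probes are not compared.

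No SLC25A gene passed the test between vitrified and control blastocysts. The median log2 ratio of the 35 genes was 0.0024, against 0.0044 over all 13136 genes tested. Of the 35 genes, 19 had a mean above 0, against 6858 of all 13136 genes tested. The counts by role group below are to be read beside that share. Gene means ran from -0.43 for SLC25A31 to 0.37 for SLC25A37. Medians by pair were -0.04, 0.04, 0.02 and -0.05, with pairs on both sides of 0. The values furthest from 0 for their error were those of SLC25A37, an iron importer, and SLC25A4, an ADP/ATP carrier, above 0, and of SLC25A3, the phosphate carrier, SLC25A33, a pyrimidine nucleotide carrier, and SLC25A35, an orphan carrier, below 0.

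**Figure D1:**
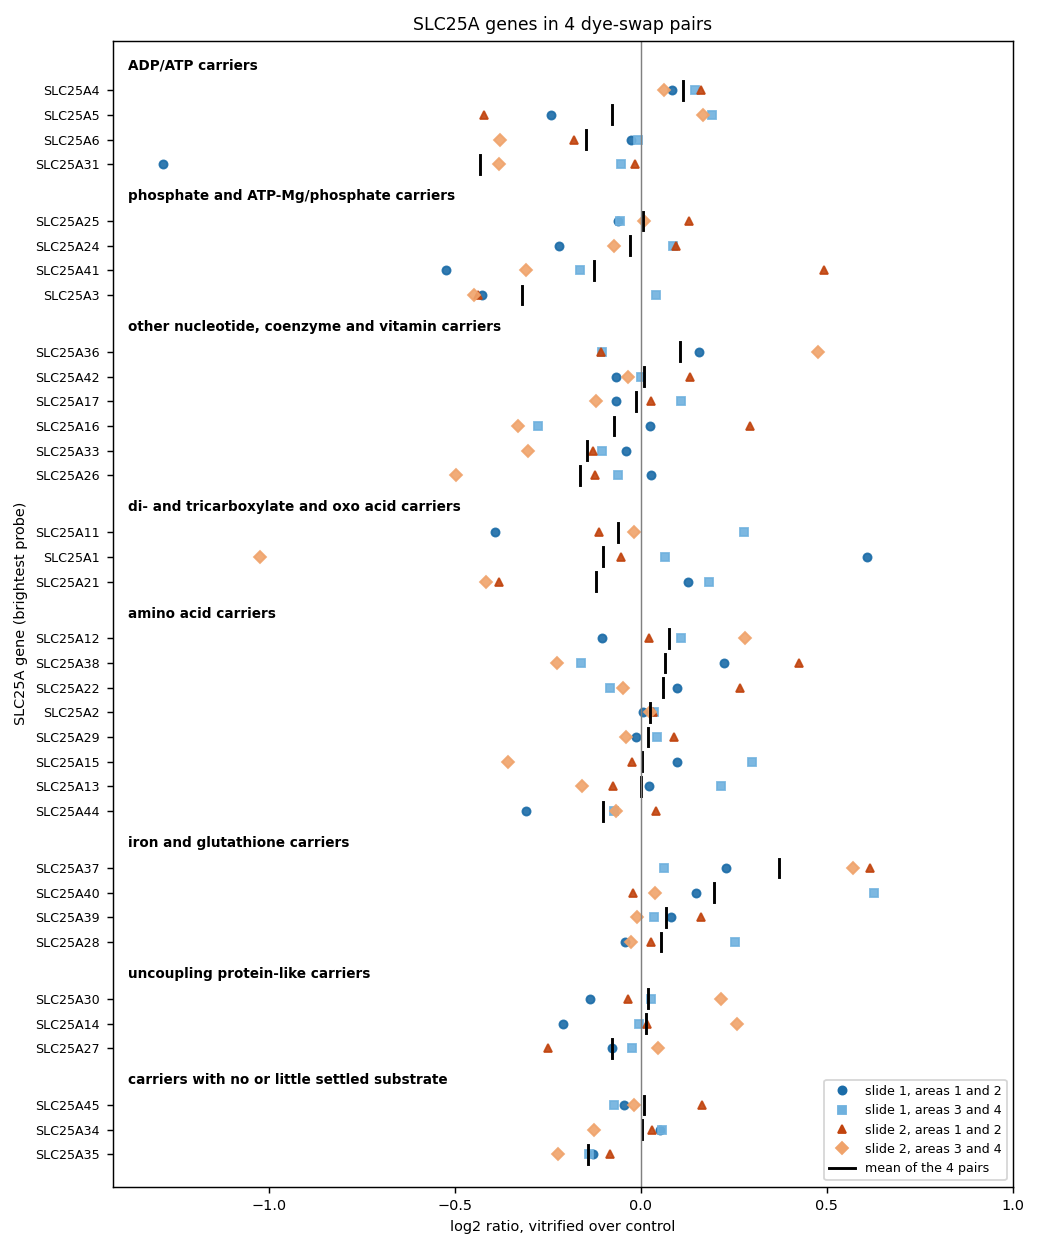
Log2 ratio of vitrified over control (horizontal axis) of each tested SLC25A gene by its brightest probe (vertical axis, grouped by role), with 1 symbol for each of the 4 dye-swap pairs and a bar at their mean. For most genes the 4 pairs lie on both sides of 0, and SLC25A2, SLC25A4 and SLC25A37 lie above 0 and SLC25A6, SLC25A31, SLC25A33 and SLC25A35 below 0 in every pair. SLC25A2, at a mean of 0.02, is dim and cleared the background limit on 6 arrays for vitrified RNA and on 5 for control RNA.

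With limma over the 4 pairs, 0 of 56 SLC25A probes had an adjusted p under 0.05, as did 0% of all 34912 probes tested. At an unadjusted p under 0.05 there were 6 SLC25A probes, 10.7% against 7.7% of all probes, with 3 higher (3.29% of all) and 3 lower (4.41% of all). With 2 fewer such probes the family's share would lie below the background. A mean above 0 was found for 33 probes, 58.9% against 52.1%, and a mean over 0.5 in size for 0, against 0.75%. All 4 pairs were above 0 for 4 probes, 7.14% against 8.44% of all probes, and below 0 for 7, 12.5% against 7.49%. All 8 arrays were above 0 for 1 probe, 1.79% against 1.23%, and below 0 for 3, 5.36% against 1.62%. The 95% interval of the log2 ratio lay within 0.5 of 0 for 29 of 35 genes. It reached past 0.5 for SLC25A1, SLC25A3, SLC25A37, SLC25A40 and SLC25A41, and past 1 for SLC25A31 alone. The genes within 0.5 include dim ones, such as SLC25A2, SLC25A35 and SLC25A42. For dim probes the interval covers the measured ratio and does not bound the change in RNA. The fit by the labels' replicate numbers also called 0 SLC25A probes. It had 13 at an unadjusted p under 0.05, 23.2% of the family against 14.8% of all probes. Counting the 8 arrays singly, limma called 0 as independent arrays (1.71% of all probes) and 2 with replicate numbers as a block (2.99%). The latter were SLC25A37, higher (1.21% of all), and SLC25A35, lower (1.77%), and both fits count each pair of pools more than once if neighbouring areas share pools. With each pair left out in turn, in the order above, the 6 probes at that p became 3, 3, 2 and 2. Those are 5.36%, 5.36%, 3.57% and 3.57% of the family, each below the 6.46%, 7.27%, 9.58% and 6.58% of all probes in the same fits.

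**Figure D2:**
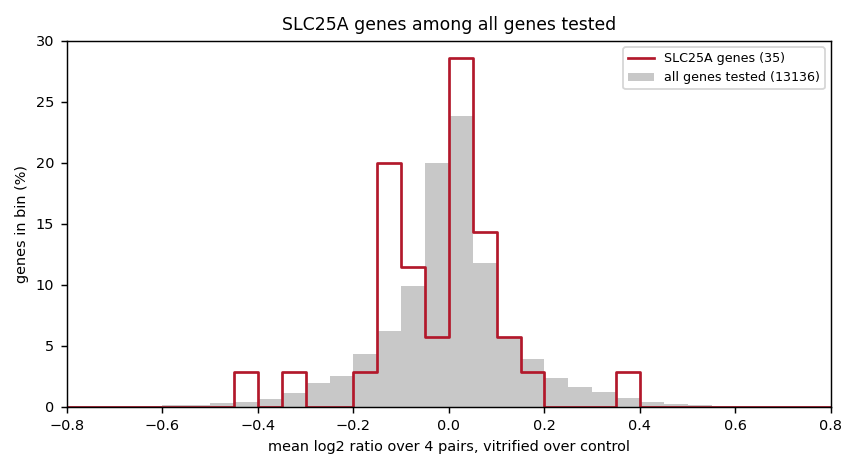
Share of genes (vertical axis, %) by mean log2 ratio over the 4 pairs (horizontal axis, bins of 0.05) for all 13136 genes tested (grey bars) and the 35 SLC25A genes (red line). Both distributions centre on 0, and the SLC25A genes lie between -0.43 and 0.37.

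The ADP/ATP carriers swap matrix ATP for cytosolic ADP, and 1 of the 4 tested was above 0. SLC25A4, the form best known from heart and muscle, was at 0.08, 0.15, 0.16 and 0.06 in the 4 pairs. All pairs were slightly above 0, and the mean was 0.11 ± 0.05, or 1.08-fold (unadjusted p = 0.0307, adjusted p = 0.591). Of its 8 arrays 5 were above 0, with a dye effect of 0.17 as log2 Cy5 over Cy3 that cancels in the pair means. With arrays centred on their median in place of loess its mean was 0.03. SLC25A6, a widely expressed form, was at -0.03, -0.0069, -0.18 and -0.38, with a mean of -0.15 ± 0.17 (unadjusted p = 0.11, adjusted p = 0.749). It was below 0 in all pairs and on all 8 arrays (1.62% of all probes). The first slide was at -0.02 and the second at -0.28, a slide difference with an unadjusted p of 0.0705 and an adjusted p of 1. SLC25A5, the form of proliferating cells, was at -0.24, 0.19, -0.42 and 0.17, with pairs on both sides of 0 on each slide (mean -0.08 ± 0.30). Its other probe followed it closely, at -0.22, 0.24, -0.57 and 0.12. SLC25A31, known from male germ cells, was at -1.28, -0.05, -0.02 and -0.38. The first pair was far below the others, and the mean of -0.43 ± 0.59 (unadjusted p = 0.13, adjusted p = 0.768) was -0.15 without it. The probe was dim, above background on 7 arrays for each RNA, and its mean was -0.26 without background subtraction. The other tested probe of SLC25A31 was also lowest in the first pair, at -0.43, -0.03, 0.13 and -0.18. SLC25A4, SLC25A5 and SLC25A6 are close paralogs, and whether the probes keep them apart was not tested.

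SLC25A3 imports the phosphate that ATP synthase joins to ADP. With the vitrified pool in Cy5 its log2 ratios were -0.42, 0.05, -0.35 and -0.35, and with the dyes swapped they were -0.43, 0.03, -0.53 and -0.55. The 2 arrays of a pair were close together, 3 pairs lay between -0.45 and -0.43, and the pair on the first slide areas 3 and 4 was at 0.04. The mean was -0.32 ± 0.24, which is 1.25-fold higher in control embryos (95% interval of the log2 ratio -0.58 to -0.06, unadjusted p = 0.0267, adjusted p = 0.574). Without the pair on the first slide areas 3 and 4, the one apart from the rest, the mean was -0.44 (unadjusted p = 0.000716, adjusted p = 0.539). Without each of the other pairs in turn, the unadjusted limma p was 0.0911, 0.0946 and 0.0919. Over the leave-one-out fits the adjusted p ran from 0.539 to 0.831. The ATP-Mg/phosphate carriers, which adjust the adenine nucleotide pool of the matrix, did not share these values. SLC25A41 was at -0.52, -0.16, 0.49 and -0.31 and was widely spread, with a mean of -0.13 ± 0.44. SLC25A24 and SLC25A25 were at -0.03 ± 0.15 and 0.0047 ± 0.09.

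**Figure D3:**
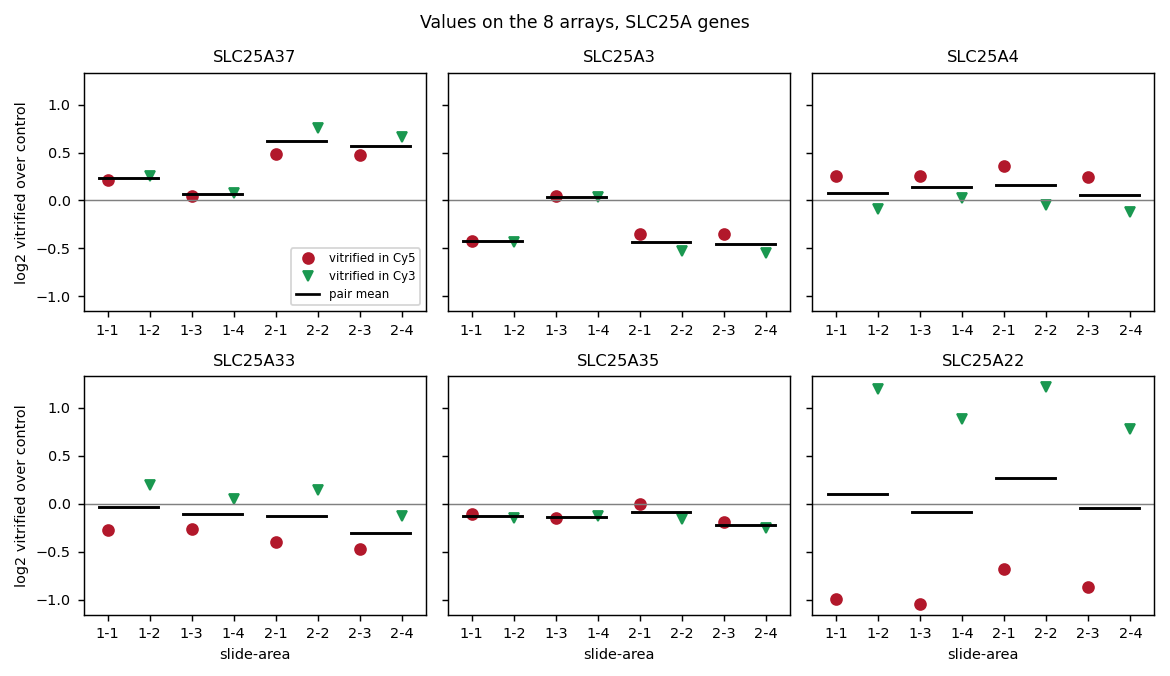
Log2 ratio of vitrified over control (vertical axis) of 6 SLC25A genes on each of the 8 arrays (horizontal axis, slide and area), with circles where the vitrified pool was in Cy5, triangles where it was in Cy3 and bars at the pair means. SLC25A37 lies above 0 and SLC25A35 below 0 on all 8 arrays, SLC25A3 is below 0 in 3 pairs, and the arrays of SLC25A22 split by dye.

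Of the other carriers of nucleotides and coenzymes, 2 of 6 were above 0. SLC25A33, which brings pyrimidine nucleotides into mitochondria, was at -0.04, -0.10, -0.13 and -0.30. It was below 0 in all pairs, most so on the second slide areas 3 and 4, with a mean of -0.14 ± 0.11 (unadjusted p = 0.0496, adjusted p = 0.648). On 3 of 8 single arrays SLC25A33 was above 0, with a dye effect of -0.21 as log2 Cy5 over Cy3. Its other probe was below 0 in all pairs too, at -0.02, -0.04, -0.08 and -0.10. SLC25A36, a carrier of the same substrates, was at 0.10 ± 0.28, with pairs from -0.11 to 0.48. SLC25A26, which imports S-adenosylmethionine for methylation in the matrix, had 7 probes. The brightest was at 0.03, -0.06, -0.12 and -0.50 (mean -0.16 ± 0.23, unadjusted p = 0.157, adjusted p = 0.796), and the next brightest at 0.19, 0.13, 0.09 and 0.04 (mean 0.11 ± 0.06, unadjusted p = 0.0442, adjusted p = 0.636). These 2 probes had opposite means, the brightest mainly through the last pair and the next through small values above 0 in every pair. The 5 other probes had means from -0.13 to 0.04. SLC25A16 was at -0.07 ± 0.29, the coenzyme A carrier SLC25A42 at 0.0077 ± 0.09 and the peroxisomal SLC25A17 at -0.01 ± 0.10. SLC25A42 was dim: its spot cleared the background limit on 4 arrays for vitrified RNA and on 3 for control RNA.

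Carriers of di- and tricarboxylates link the citric acid cycle to cytosolic synthesis and redox shuttles, and 0 of 3 had a mean above 0. SLC25A21, the oxodicarboxylate carrier, was at 0.13, 0.18, -0.38 and -0.42 by its brightest probe. Both pairs of the first slide were above 0 and both of the second below 0, and the mean was -0.12 ± 0.32 (unadjusted p = 0.402, adjusted p = 0.906). Its other tested probe was at 0.31, -0.20, -0.45 and 0.17, with pairs on both sides of 0 on each slide. SLC25A11, the oxoglutarate/malate carrier of the malate-aspartate shuttle, was at -0.39, 0.28, -0.11 and -0.02 (mean -0.06 ± 0.28). SLC25A1, the citrate carrier, had the widest spread of the family, 0.61, 0.06, -0.05 and -1.03, with opposite values in the first and the last pair. Its other probe was at -0.10, 0.06, 0.12 and 0.02 and did not show these values. The mean of SLC25A1 was -0.10 ± 0.68.

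Amino acid carriers had small ratios, 7 of 8 above 0 with a median of 0.02. SLC25A44, a branched-chain amino acid carrier, was at -0.31, -0.07, 0.04 and -0.07 and was the one below 0 (mean -0.10 ± 0.15, unadjusted p = 0.19, adjusted p = 0.823). SLC25A12, an aspartate/glutamate carrier of the malate-aspartate shuttle, was at -0.10, 0.11, 0.02 and 0.28 (mean 0.08 ± 0.16, unadjusted p = 0.341, adjusted p = 0.887). Its paralog SLC25A13 was at 0.00073 ± 0.16. The glutamate carrier SLC25A22 was at 0.06 ± 0.16, the ornithine carriers SLC25A15 and SLC25A2 at 0.0036 ± 0.27 and 0.02 ± 0.01, and the basic amino acid carrier SLC25A29 at 0.02 ± 0.06. SLC25A38, which imports glycine for haem synthesis, had a mean of 0.07 ± 0.31 by its brightest probe, at 0.22, -0.16, 0.42 and -0.23. Its other probes were at -0.20, -0.20, 0.32 and 0.40 and at 0.17, -0.15, 0.22 and 0.96. All 3 were below 0 in the second pair and above 0 in the third, and they parted in the fourth, where the brightest was below 0 and the others above it.

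Iron and glutathione carriers were the one of 8 role groups with all members above 0, 4 of 4, with a median of 0.13. Over all genes tested 6858 of 13136 were above 0, and whether groups this small differ from that share was not tested. SLC25A37, or mitoferrin 1, imports iron for haem and iron-sulfur clusters and is best known from red cell precursors. With the vitrified pool in Cy5 its log2 ratios were 0.21, 0.05, 0.48 and 0.48, and with the dyes swapped 0.25, 0.08, 0.75 and 0.66. All 8 arrays were above 0 (1.23% of all probes), the lowest on the first slide areas 3 and 4 and the highest on the second slide. The pairs were at 0.23, 0.06, 0.62 and 0.57, with a mean of 0.37 ± 0.27, or 1.29-fold (95% interval of the log2 ratio 0.08 to 0.66, unadjusted p = 0.0226, adjusted p = 0.562). The 2 dimmer probes of the gene did not share this value, with means of 0.07 ± 0.14 and -0.13 ± 0.11, the last of them below 0 on all 8 arrays. The mean over the 3 probes was 0.10 (adjusted p = 0.721). SLC25A28, mitoferrin 2, was at 0.05 ± 0.14. The glutathione importers SLC25A39 and SLC25A40 were at 0.07 ± 0.07 and 0.20 ± 0.29, the latter through 1 pair, as its pairs were 0.15, 0.63, -0.02 and 0.04.

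**Figure D4:**
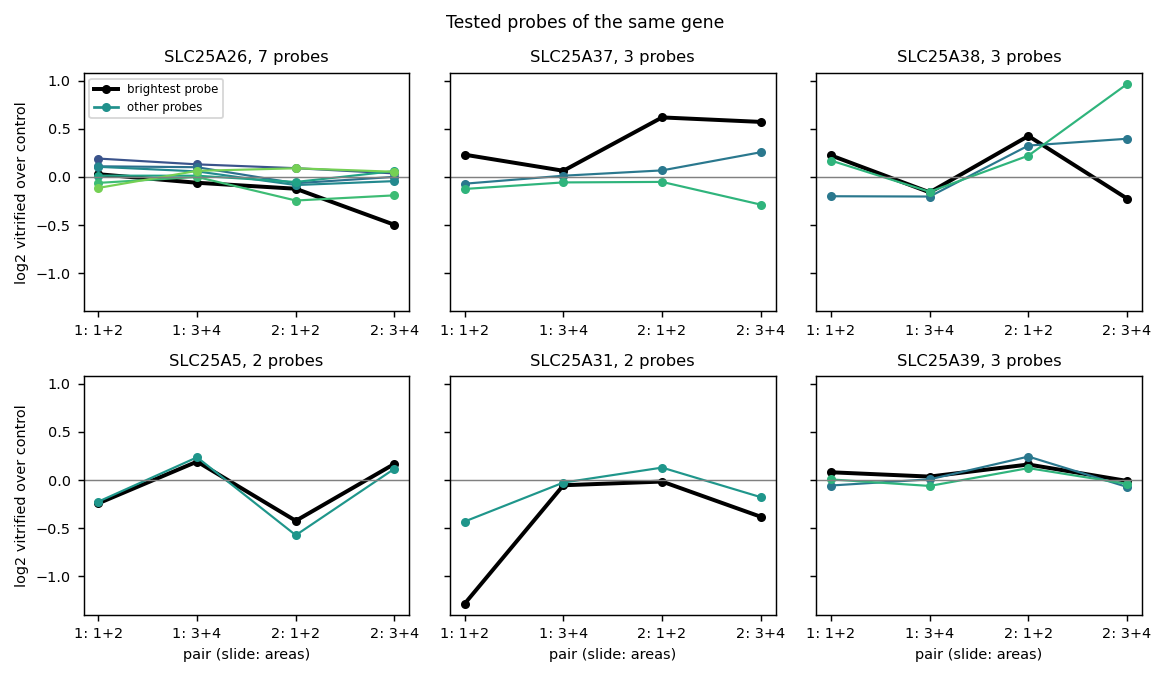
Log2 ratio of vitrified over control (vertical axis) in the 4 dye-swap pairs (horizontal axis, slide and areas) of every tested probe of 6 SLC25A genes, with the brightest probe in black. The 2 probes of SLC25A5 follow each other, whereas the brightest probe of SLC25A37 lies above its 2 others in every pair and that of SLC25A26 lies below its 6 others in the last pair.

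Of the uncoupling protein-like carriers, SLC25A27 was at -0.08, -0.02, -0.25 and 0.05 (mean -0.08 ± 0.13), SLC25A30 at -0.14, 0.03, -0.03 and 0.22 (mean 0.02 ± 0.15) and SLC25A14 at 0.01 ± 0.19. None of them held a direction over the pairs. Among carriers with no settled substrate, SLC25A35 was at -0.13, -0.14, -0.08 and -0.22 and below 0 on all 8 arrays (1.62% of all probes). Its mean of -0.14 ± 0.06 is a 1.1-fold higher level in control embryos (unadjusted p = 0.0163, adjusted p = 0.535), the smallest p of the family at a small difference. The probe was dim and above background on 7 arrays in each channel. SLC25A45 was at -0.05, -0.07, 0.17 and -0.02 (mean 0.0073 ± 0.11) and SLC25A34 at 0.0024 ± 0.09.

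Several probes of one gene give a check within the family. Of 13 genes with at least 2 tested probes, 9 had means of 1 sign, and the median range between the probes of a gene was 0.08. Genes whose probes had means of both signs were SLC25A1, SLC25A26, SLC25A37 and SLC25A44. For SLC25A44 this rests on a dim probe at 0.01 ± 0.01. It cleared the background limit on 4 arrays for vitrified RNA and on 2 for control RNA. Which transcripts each probe detects was not tested.

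The pairs differed among themselves more than their 2 arrays did. Across the 56 tested SLC25A probes, which share arrays and are not independent, the 2 arrays of a pair correlated at a mean r of 0.818 once the mean dye effect of each probe was removed. The 4 pairs correlated with each other at a mean r of 0.0171, from -0.292 to 0.214. The median SD over pairs was 0.161 for the SLC25A genes, close to the 0.157 of all genes tested, against a median SD of 0.0785 between the arrays of a pair. Single arrays carried dye bias: 29 of 56 probes had a dye effect at an adjusted p under 0.05 by limma, against 54.3% of all probes. The glutamate carrier SLC25A22 had the strongest in the family, with a log2 ratio of Cy5 over Cy3 of -0.96. Its vitrified over control ratios lay between -1.04 and -0.68 with the vitrified pool in Cy5 and between 0.78 and 1.21 in Cy3, and the pair means, in which the dye cancels, were 0.10, -0.08, 0.27 and -0.05.

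Between the slides, limma called 0 of 56 SLC25A probes (0% of all probes). At an unadjusted p under 0.05 there were 3, 5.36% of the family against 3.96% of all probes. One was the brightest probe of SLC25A21, at 0.16 on the first slide and -0.40 on the second (unadjusted p = 0.00268, adjusted p = 1). The other tested SLC25A21 probe was at 0.05 and -0.14 (unadjusted p = 0.563). Another was the brightest probe of SLC25A37, at 0.15 and 0.59 (unadjusted p = 0.012, adjusted p = 1). The remaining one was a probe of SLC25A38, at -0.20 and 0.36 (unadjusted p = 0.00259). The brightest SLC25A38 probe was at 0.03 and 0.10 (unadjusted p = 0.824), and the dimmest at 0.0072 and 0.59 (unadjusted p = 0.135). Both pairs of one slide above 0 and both of the other below 0 were found for 9 probes, 16.1% against 9.56% of all. What differs between slides besides the slide, such as pools or days, is not given in the labels.

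Genes that act with the carriers were read by 1 probe each, and 0 of the genes in these 4 lists passed the test at an adjusted p under 0.05. At an unadjusted p under 0.05, 4.49% of all 13136 genes were higher and 5.02% lower, and in lists this short 1 gene is a larger share than that. The import route that brings carriers from the cytosol to the inner membrane had 5 of 15 members above 0, a median of -0.05, and 1 higher and 1 lower at an unadjusted p under 0.05. They were TOMM22, a receptor of the outer membrane translocase, at 0.15 ± 0.04 and TIMM8A, a small chaperone of the intermembrane space, at -0.41 ± 0.25. The other membrane transporters of mitochondria had 10 of 14 above 0 and a median of 0.01, with 2 higher and 0 lower at that p. These were BRP44L, now named MPC1, a subunit of the pyruvate carrier, at 0.34 ± 0.20, and ABCB10, a transporter needed in haem synthesis, at 0.23 ± 0.10. BRP44, the other pyruvate carrier subunit, was at 0.0077 ± 0.20. The porins VDAC1 and VDAC2 were at -0.04 ± 0.22 and 0.0048 ± 0.26. Proteins of the carrier fold under other symbols had 3 of 5 above 0, and 0 higher and 0 lower at that p. In this list MTCH1 was at -0.22 ± 0.29 and UCP2 at 0.07 ± 0.08. UCP1, at 0.03 ± 0.01 and counted above 0, cleared the background limit on 4 arrays for vitrified RNA and on 2 for control RNA. The malate-aspartate shuttle enzymes had 2 of 4 above 0, with 0 higher and 1 lower at that p, the latter MDH1. MDH1 was at -0.16 ± 0.10, GOT1 at -0.08 ± 0.08, GOT2 at 0.14 ± 0.20 and MDH2 at 0.04 ± 0.30. The adjusted p of all these genes lay between 0.492 and 0.997.

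Markers of the blastocyst's own lineages were present. CDX2, KRT8 and GATA3 of the trophectoderm and POU5F1, NANOG and SOX2 of the inner cell mass were above background on at least 7 of 8 arrays in each channel. EOMES of the trophectoderm was above it on 3 arrays for vitrified RNA and 4 for control RNA, and TDGF1 of the inner cell mass on 2 and 5. Both were tested only through the control RNA, and both count below among the markers with a mean under 0. Trophectoderm markers had 11 of 12 means above 0 and pair medians of 0.35, 0.46, -0.06 and 0.51. Inner cell mass markers had 2 of 6 above 0, with pair medians of -0.08, -0.13, 0.0061 and -0.43, and primitive endoderm markers 1 of 5. Markers of cumulus, oocyte and sperm, cells that could be carried along, had 4 of 8, 4 of 6 and 2 of 4 above 0, with medians of -0.004, 0.04 and 0.02. Single markers spread more widely, from -0.60 ± 1.30 for LUM of cumulus, at -2.29 in the last pair, to 0.38 ± 0.17 for SPAM1 of sperm. TNP1 of sperm was at -0.19 ± 0.05. SPAM1 cleared the background limit on 7 arrays for vitrified RNA and on 3 for control RNA. It was thus tested only through the RNA where it was higher. HAS2 of cumulus, counted below 0, cleared the limit on 3 and 5 and was tested only through the control RNA. XIST, the RNA that silences an X chromosome in female cells, was at -1.22, -1.55, -0.58 and -0.15, below 0 in all pairs, and SLC25A5, SLC25A6 and SLC25A14 lie on the X chromosome in the RefSeq table. The part of lineage make-up, carried-along cells and embryo sex in the SLC25A values was not tested. In pooled embryos, fewer cells of a type and less RNA per cell cannot be told apart.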

How the data were processed

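The authors' deposited scanner files hold, per the file headers, mean and median spot intensity and the intensity around the spot for Cy3 and Cy5, with no correction or normalization. The authors' deposited value table holds 1 log2 value per probe and array, by a normalization not stated in the labels. Its scale and direction were taken as vitrified over control on a log2 scale, since across probes it followed the ratios computed here at r of 0.679 to 0.834. It is an alternative here, and the medians of its columns ran from -0.0102 to 0.0104.

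Background was corrected on the mean intensities by normexp (offset 50), and loess normalized each array with weight 0 for its 1418 control spots (R 4.3.3, limma 3.58.1). The limit for above background was 2 SD over the mean log2 intensity of 153 negative controls, per array and channel. Probes past it on at least 4 of 8 arrays for either RNA were tested. Neighbouring areas were averaged after turning the sign of arrays with the vitrified pool in Cy3, and limma's lmFit and eBayes tested the 4 pair means against 0, with Benjamini-Hochberg adjustment over all probes. The labels' replicate numbers each join arrays of both slides in one dye orientation, which is not a dye swap, so the fit by these numbers is an alternative. Over all probes, neighbouring areas correlated at r = 0.834 with the dye effect removed, and arrays of one number at 0.0986. An exact sign test over 4 pairs cannot go below p = 0.125. The fits were tested on simulated data.

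The platform annotation, which can be old, gave 1 symbol to 21790 probes, several to 0 and none to 22004. Of the 36 SLC25A symbols, 33 stand in the RefSeq genes of NIAB-ARS_B.indTharparkar_mat_pri_1.0, not SLC25A2, SLC25A24 or SLC25A40. Another 9 SLC25A genes of that table have no named probe and were not analysed here. Pair values were to be given for genes with an unadjusted p under 0.05, the 8 smallest p, the ADP/ATP carriers and the 2 smallest p of each role group, and other genes by mean and SD. Members and lists were chosen with earlier results of these data known. No probe, transcript or protein sequences were used here. The number of arrays limits the precision.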

Additional observations from a re-analysis of the deposited data

Results flagged for a closer look

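In 2 of 35 SLC25A genes, 1 of the 4 pairs stood apart from the rest by Dixon's test, and by chance alone the number would be about 1.75. SLC25A3, the phosphate carrier, was at 0.040 on the first slide areas 3 and 4, whereas its 3 other pairs lay between -0.45 and -0.43. Both arrays of that pair gave this value. SLC25A34, an orphan carrier, was at -0.13 on the second slide areas 3 and 4, against 0.029 to 0.055 in the others. The arrays of that pair were apart, at 0.041 with the vitrified pool in Cy5 and -0.29 in Cy3. The probe was dim and above background on 7 arrays for each RNA.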

How the results depend on the processing

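The number of pairs, 4, and the dimness of many probes limit what could be detected. Over dye-swap pairs, no alternative in the background correction, normalization, filter, slide block or choice of pairs called an SLC25A probe. The 8 arrays with the replicate number as a block called 2, SLC25A35 and SLC25A37 (adjusted p = 0.0457 and 0.0475, 2.99% of all probes called), whereas over all fits the adjusted p of SLC25A37 ran from 0.0475 to 0.977 and that of SLC25A35 from 0.0457 to 0.994. The block fit estimated a correlation of -0.112 between arrays of a number, which makes errors narrower than with independent arrays. With 8 independent arrays the adjusted p was 0.0696 for SLC25A35 and 0.0796 for SLC25A37. The 6 probes at an unadjusted p under 0.05 became 13 by replicate numbers (23.2% of the family against 14.8% of all probes). They became 10 with 8 independent arrays (17.9% against 15.3%) and 10 with the replicate block (17.9% against 17.6%). On the first slide alone 1 was left (1.79% against 7.18%), and on the second alone 4 (7.14% against 4.89%). Median centring gave 2 (3.57% against 5.38%), no background subtraction 7 (12.5% against 7.37%) and the deposited values 5 (8.93% against 7.15%). With a slide block there were 6 (10.7% against 7.22%). Of 21 probes above background in all channels 2 were left (9.95% of all probes), and 2 to 3 without 1 pair. Of the 6 probes, the filter on all channels leaves out that of SLC25A35, above background on 7 arrays for each RNA. Those of SLC25A3, SLC25A4, SLC25A26, SLC25A33 and SLC25A37 passed this filter. The cause of these changes was not tested, beside the fewer pairs or slides where the setting leaves them out. The family median stayed between -0.026 and 0.013. Of the 21 genes whose pair values are given, 12 kept their sign under each of these settings. On the first slide alone SLC25A1 was at 0.34, SLC25A21 was at 0.16, SLC25A30 at -0.055 and SLC25A45 at -0.059, and on the second SLC25A41 was at 0.091. SLC25A45 was at -0.010 without background subtraction, and with median centring SLC25A22 was at -0.018, SLC25A30 at -0.00037 and SLC25A38 at -0.020. With the deposited values SLC25A30 was at -0.10 and SLC25A38 at -0.0033. Without 1 pair, SLC25A1 ran from -0.34 to 0.21, SLC25A22 from -0.010 to 0.11, SLC25A38 from -0.055 to 0.16, SLC25A41 from -0.33 to 0.0063, SLC25A11 from -0.17 to 0.048, SLC25A5 from -0.17 to 0.039, SLC25A45 from -0.045 to 0.033 and SLC25A30 from -0.048 to 0.069. The cause of these sign changes was not tested.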
